A study of Mus musculus with 60 samples.

Results

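The genes described here carry the names of the cytosolic ribosomal proteins, the protein parts of the ribosome that translates nuclear messages. They were chosen by name, as all rows of the count table whose symbol starts with Rpl or Rps, leaving out the Rps6k kinases. This gave 97 of the 21950 genes in the table. Of these, 43 encode proteins of the large subunit, 31 proteins of the small subunit and 3 the proteins of the stalk, a flexible arm of the large subunit (Rplp0, Rplp1 and Rplp2). A further 7 are related copies, each similar in sequence to a standard ribosomal protein gene, and 12 carry a name of a retrocopy, a copy made from a spliced message. Rps19bp1, which encodes a binding partner of a ribosomal protein, enters by its name and is no ribosomal protein. The 10 Rps6k names were not members.

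RNA was sequenced from hippocampus, prefrontal cortex and striatum of mice with no intact copy of Adgrl3 (KO; Adgrl3 -/-, also written Lphn3 -/-) and of wild-type mice (WT; Adgrl3 +/+). Each genotype was represented by 10 libraries in each region, 60 in all. The mice, 12 of each genotype per the labels' protocols, were killed between postnatal days 65 and 76, the frozen brains were dissected and RNA was made from whole tissue. No source used here gives the way the Adgrl3 allele was made, the strain background or the breeding of the 2 genotypes. Adgrl3 encodes latrophilin-3, an adhesion receptor of neurons, and lies on chromosome 5 (chr5:81020138-81825133, GRCm38). Its level fell from 125 to 34.9 CPM (the read count after scaling by library size) in hippocampus, from 149 to 35.3 in prefrontal cortex and from 163 to 41.8 in striatum, with no overlap between KO and WT libraries and 100000 resamples gave their smallest possible p, 1e-05 (two-sided permutation test), in each region.

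A cytosolic ribosome has a small subunit, which reads the message, and a large subunit, which joins the amino acids. Their proteins are made in near-equal numbers, from genes scattered over many chromosomes, and their messages are among the most abundant of most cells. The stalk proteins bring the elongation factors to the ribosome: Rplp0 is the base that is anchored to the large subunit, and Rplp1 and Rplp2 sit on it. Many of these messages begin with a run of the letters C and T, through which growth signalling by the mTOR kinase controls their translation. In neurons, ribosomes lie in the cell body and in dendrites, where local translation is known to accompany synaptic change.

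RefSeq promoter windows (build GRCm38.p6) were available for 66 of the 97 symbols. In the 40 bases around the annotated start (20 before it), on the strand of the gene, 30 of these 66 (45.5%) held an unbroken run of at least 8 letters that are each C or T. The share was 18.4% (4965) of the 27025 symbols in the whole promoter table, searched in the same way. Windows of 30 bases are shown for 4 of the 5 members on chromosome 5, the chromosome of Adgrl3, for Rps6, the small-subunit protein that S6 kinases phosphorylate, and for Rps15a and Rpl31, which were among the members called lower and higher in striatum. Capitals mark the longest such run, written 5′ to 3′.
Rplp0: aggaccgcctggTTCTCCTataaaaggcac
Rpl5: gcctacagccaCTCTTTCTCacgtcgcttg
Rpl6: tgatcttggtcaCCTCCCgtcattgcttat
Rpl9: gcgacacgcagggCCCTgacggattacaag
Rps6: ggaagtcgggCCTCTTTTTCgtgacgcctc
Rps15a: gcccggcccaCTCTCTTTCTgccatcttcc
Rpl31: ctcgccacaCCTCTTCCTCCTCgcctcccc
In Rps6 the run of 10 letters spans the annotated start, from base -1 to base 9, where base 1 is the first base of the message (window chr4:86857349-86857378, minus strand). In Rplp0 the longest run has 7 letters and lies inside the annotated message, from base 12 to base 18 (chr5:115559466-115559495, plus strand). The run of Rpl5 has 9 letters and ends 12 bases before the start (chr5:107900497-107900526, plus strand). Those of Rpl6 (6 letters, chr5:121204480-121204509, plus strand) and Rpl9 (4 letters, chr5:65391422-65391451, minus strand) are short. Rps15a (10 letters, chr7:118116143-118116172, minus strand) and Rpl31 (13 letters, chr1:39367824-39367853, plus strand) have long runs that end 6 bases before the annotated start. A run is a description of letters near an annotated start, not a measured start site.

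The libraries held between 38985577 and 51387833 counted reads, of which the 97 rows took between 0.894% and 1.235%. A low-count filter kept 93 members in each KO-WT comparison. The other 4 (Rpl10l, Rpl39l, Rpl9-ps1 and Rpl36-ps4) averaged at most 3.9 reads per library. Rpl10l and Rpl39l are copies known mainly from testis.

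Levels between genes were compared per length, as CPM divided by the annotated message length in kilobases, over all 60 libraries. The counted features span whole genes, introns included, while the length is that of the spliced message. Reads from introns can thus raise a value per length. The median was 134 CPM per kb for the 43 large-subunit genes and 156 for the 31 small-subunit genes. The highest levels per length were those of Rplp1 (487 ± 42.8, SD over 60 libraries), Rps15 (368), Rpl9 (317), Rps29 (302) and Rpl41 (295). Rps15 and Rps29 are proteins of the small subunit, and Rpl41 is the shortest protein of the large one. The lowest were those of Rpl3l (0.227 CPM per kb), Rpl13a-ps1 (0.625), Rpl7a-ps5 (6.47), Rpl7a-ps3 (8.07) and Rps27l (11.3). With the shortest annotated message of each gene in place of the median one, Rpl41 moved from the fifth to the third place and the lowest 5 stayed the same genes.

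Of the stalk genes, Rplp1 was 4.68 times and Rplp2 1.61 times as high as Rplp0 per length. Most related copies lay well below their partner. Rpl3l, known as the form of Rpl3 in striated muscle, reached 0.0784% of the CPM of Rpl3, Rps27l 8.07% of Rps27, and Rpl7l1 19.3% of Rpl7. Rpl36al reached 76.6% of Rpl36a, and Rpl22l1 51.7% of the CPM of Rpl22, an RNA-binding protein of the large subunit. The order of this pair per length depends on the message taken for Rpl22, whose annotated messages run from 474 to 2051 bases: Rpl22l1 had 56.4 CPM per kb, and Rpl22 had 29.4 with its median message and 127 with its shortest. Rps4l is not a row of the table used here.

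Several retrocopy names had high counts, and their ratio to the parent gene hardly moved between regions. Rpl10-ps3 had 64.0% of the CPM of Rpl10 over all libraries (63.6% in hippocampus, 64.5% in prefrontal cortex and 64.0% in striatum). The values were 71.0% for Rpl27-ps3, 60.1% for Rpl23a-ps3, 29.5% for Rpl9-ps6 and 28.96% for Rps27rt. Each of these shares a stretch of at least 341 identical bases with a message of its parent (740 for Rpl10-ps3). No source used here says how a read that matches more than 1 gene was counted, so the levels of these copies and of their parents are uncertain. Rpl13, Rpl13a and Rpl36al overlap another gene on the same strand and can share reads with it.

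The summed share of the members was highest in hippocampus, at 1.123% ± 0.029 (SD, n = 10) of the counts in WT and 1.10% ± 0.044 in KO. It was 1.01% ± 0.091 in WT and 1.01% ± 0.093 in KO prefrontal cortex, and 0.979% ± 0.050 in WT and 1.01% ± 0.084 in KO striatum. In striatum 4 libraries stood above the rest, with 1.095%, 1.107% and 1.158% in KO replicates 8, 9 and 10 and 1.100% in WT replicate 10, while the other 16 lay between 0.925% and 1.009%. These 4 are also the last striatum columns of the deposited counts. No source used here says what the order of columns stands for. In prefrontal cortex the highest shares were 1.235% in KO replicate 10 and 1.181% in WT replicate 6. The WT prefrontal cortex libraries also fell into separate sets by number, with 0.906% to 0.968% in replicates 1 to 5 and 1.053% to 1.181% in replicates 6 to 10 (the values of Rplp0 in both sets are given with that gene). These 6 libraries were left out in an added repeat of each comparison they enter, and the values without them stand beside the results.

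**Figure D1:**
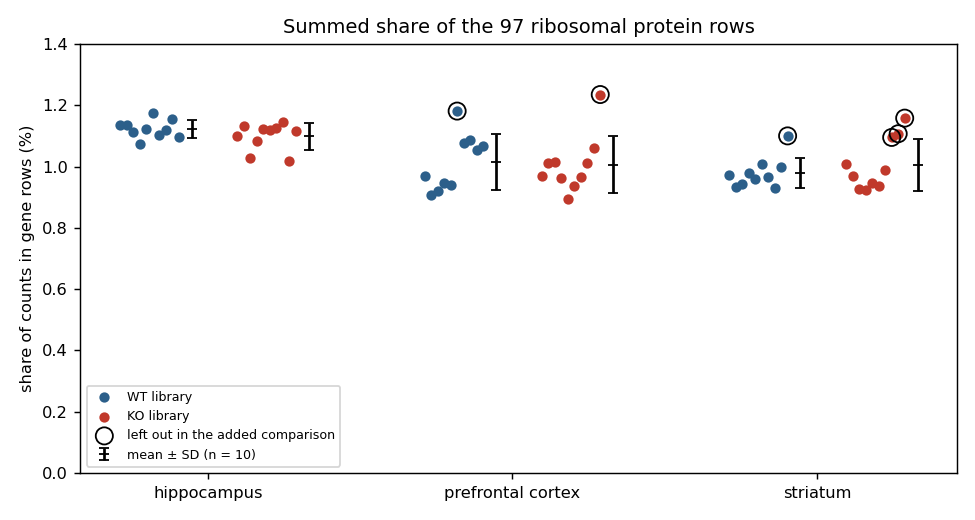
Share of counted reads (%) in the 97 ribosomal protein rows, by region; each point is a library (WT blue, KO red), with the mean and SD of 10 libraries beside it. Circles mark the 6 libraries with the highest shares in prefrontal cortex and striatum, 1.095% to 1.235%.

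The comparison of KO with WT asked whether loss of Adgrl3 goes with a change in these genes in any region. Rplp0 was the sole member that passed edgeR's quasi-likelihood test at a Benjamini-Hochberg adjusted p of 0.05 over all genes. It fell by 0.32 on the log2 scale in hippocampus and by 0.28 in prefrontal cortex, and was 0.26 lower in striatum without passing. Read against the background, this is 1 of 93 members in hippocampus, where 0.128% of all 15581 genes tested passed, and 1 of 93 in prefrontal cortex, where 0.117% of 15376 did. In striatum 0 of 93 members passed edgeR's test (3 at an unadjusted p under 0.05; 1, Rplp0, by DESeq2), with 0.0514% of all 15553 genes. On counts summed over the 3 regions for each genotype and replicate number, 1 of 93 members passed, again Rplp0, and 0.162% of all 16676 genes. Most genes called lay on chromosome 5, Adgrl3 among them: 18 of 20, 14 of 18, 8 of 8 and 23 of 27 in the 4 comparisons. That is 1.9% of 949, 1.5% of 933, 0.845% of 947 and 2.27% of 1015 chromosome 5 genes tested. Of the 5 members there, 1, 1, 0 and 1 passed.

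Rplp0 (chr5:115559467-115563727, plus strand, 33.7 Mb from Adgrl3) lay at 126 CPM in the lowest, 133 in the median and 165 in the highest KO hippocampus library, against 142, 176 and 194 CPM in WT. In prefrontal cortex the KO libraries ran from 116 over a median of 126 to 138 CPM, and the WT libraries from 115 over 156 to 175 CPM. In striatum the KO libraries ran from 103 over 114 to 145 CPM, and the WT libraries from 113 over 142 to 157 CPM. Most KO libraries thus lay below most WT libraries, with an overlap made in hippocampus and prefrontal cortex by a single WT library. That library was WT replicate 5, the lowest WT library for Rplp0 in each region (142, 115 and 113 CPM). Of the sets of WT prefrontal cortex libraries, replicates 1 to 5 ran from 115 to 159.7 CPM and replicates 6 to 10 from 155 to 175 CPM. Without replicate 5 the lowest WT library was at 169 CPM in hippocampus and 143 CPM in prefrontal cortex, above all 10 KO libraries of each region, and at 132 CPM in striatum, above 9 of 10.

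The log2 difference of Rplp0 was -0.32 (SE 0.053) in hippocampus, with an adjusted p of 0.0103 by edgeR's quasi-likelihood test, and KO was 19.7% lower. The difference was -0.28 (SE 0.056, adjusted p = 0.0497, edgeR) in prefrontal cortex, -0.26 (SE 0.063, adjusted p = 0.299) in striatum and -0.29 (SE 0.050, adjusted p = 0.00978) on the summed counts. DESeq2 called Rplp0 in striatum as well (adjusted p = 0.0428). WT replicate 5 was singled out for its low Rplp0, so a larger difference without it follows from the choice; the adjusted p was then 0.000497 in hippocampus, 0.000296 in prefrontal cortex and 0.0537 in striatum by edgeR. The call in prefrontal cortex lies close to the threshold. It was kept when KO replicate 1, 5, 7 or 8 or WT replicate 4 or 5 was left out, and lost when any of the other 14 libraries was, or when KO replicate 10 and WT replicate 6 were left out together (adjusted p = 0.0753, edgeR). Genotype by region was tested in a fit that took all 60 libraries as independent. In it 0 of 93 members passed by edgeR and 0 by DESeq2, with 0.0248% of all 16121 genes by edgeR. At an unadjusted p under 0.05 there were 0 members and 638 of all genes (edgeR). With genotype and replicate number together as a block, 0 of all genes passed (edgeR). Since the tissue was sequenced whole, fewer cells of a type and less RNA per cell cannot be told apart.

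The partners of Rplp0 in the stalk gave no such difference. Rplp1 (on chromosome 9) lay between 239 and 279 CPM in KO and between 233 and 286 CPM in WT hippocampus, with a log2 difference of 0.013 (SE 0.035), 0.055 (SE 0.057) in prefrontal cortex and 0.080 (SE 0.053) in striatum. Rplp2 (on chromosome 7) differed by -0.024 (SE 0.022), 0.0013 (SE 0.060) and 0.038 (SE 0.042). None of these values passed the test, and the ranges of KO and WT overlapped in each region.

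The other 4 members on chromosome 5 did not pass in any of the 4 comparisons. Rpl5, which carries the 5S ribosomal RNA into the large subunit together with Rpl11, had the second smallest p of all members in hippocampus, prefrontal cortex and the summed counts. It lay between 178 and 205 CPM (median 190) in KO and between 191 and 215 CPM (median 204) in WT hippocampus, and 6 of 10 KO libraries were below the lowest WT library. Its log2 difference was -0.098 (SE 0.027, adjusted p = 0.294) in hippocampus, -0.085 (SE 0.043) in prefrontal cortex, -0.033 (SE 0.039) in striatum and -0.075 (SE 0.026, adjusted p = 0.311) on the summed counts, by edgeR. A fit that took all 60 libraries as independent, with region as a term, called it (-0.071, adjusted p = 0.0395, edgeR).

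Rpl6, Rpl9 and Rpl21, proteins of the large subunit, differed by at most 0.075 in any region. Rpl6 (39.4 Mb from Adgrl3) had medians of 209 CPM in KO and 212 CPM in WT hippocampus, 208 and 201 CPM in prefrontal cortex, and 198 and 194 CPM in striatum. Rpl9 (15.6 Mb from Adgrl3 and thus nearer than Rplp0) had medians of 238 and 235 CPM, 231 and 220 CPM, and 205 and 200 CPM in the same order. Rpl21 (the farthest from Adgrl3) had medians of 141 and 141 CPM, 132 and 131 CPM, and 115 and 117 CPM. Distance from Adgrl3 did not order the 5 differences: the nearest member, Rpl9, and the farthest, Rpl21, both had values near 0.

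The gene that follows Rplp0 on the chromosome moved the opposite way. Gcn1l1 (chr5:115565254-115622654, plus strand), a ribosome-binding activator of the stress kinase Gcn2, begins 1527 bases after the end of Rplp0. It is a member of the list of translation factors and passed in every KO-WT comparison. In hippocampus it ran from 87.1 over a median of 102 to 113 CPM in KO and from 82.3 over 85.5 to 100.2 CPM in WT. The medians were 95.8 and 76.8 CPM in prefrontal cortex and 92.96 and 72.02 CPM in striatum. It rose by 0.23 (SE 0.043, adjusted p = 0.0249), 0.29 (SE 0.054, adjusted p = 0.0284), 0.33 (SE 0.058, adjusted p = 0.0233) and, on the summed counts, 0.28 (SE 0.046, adjusted p = 0.00562) on the log2 scale, by edgeR. Of the 21 genes tested within 0.5 Mb of Rplp0, Gcn1l1 alone passed on the summed counts, and the median absolute difference of the 21 was 0.047.

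WT replicate 5 stood with the KO libraries for Gcn1l1 as it did for Rplp0. Its values of 100.2, 102 and 90.1 CPM were the highest of WT in each region, where the other 9 WT libraries reached 89.98, 79.8 and 76.4 CPM. Its Adgrl3 level was at that of WT, since no WT library lay under 117 CPM in any region. Of the 28 genes on chromosome 5 other than Adgrl3 that passed in any of the 4 comparisons, 13 were nearer the KO mean than the mean of the other WT libraries in all 3 regions of WT replicate 5. For the other 19 pairs of genotype and replicate number, between 0 and 4 of the 28 were nearer the opposite genotype in that way, the 4 being those of KO replicate 8, with Rplp0 among them. The 13 genes start between 92.3 and 116 Mb, a span that holds 19 of the 28. This count was made after these values were seen, and the 28 genes were called on the same libraries.

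**Figure D2:**
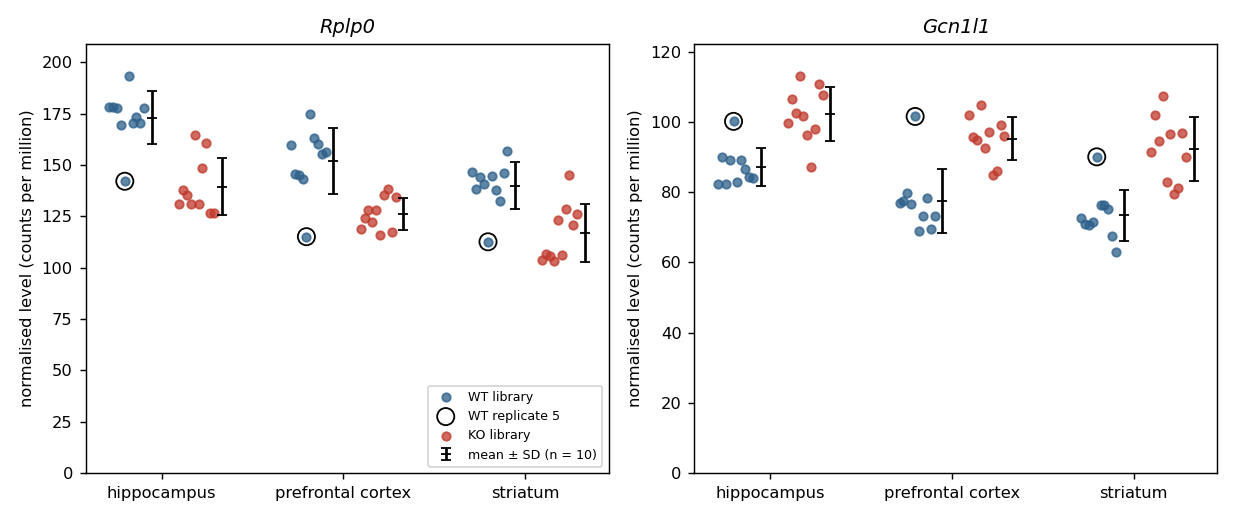
Normalised level (CPM) of Rplp0, left, and of its neighbour Gcn1l1, right, by region; each point is a library (WT blue, KO red), with the mean and SD of 10 libraries beside it. The circled WT replicate 5 lies at 142, 115 and 113 CPM for Rplp0 and at 100.2, 102 and 90.1 CPM for Gcn1l1, among the KO libraries.

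Of the 88 members off chromosome 5 that were tested, 0 passed in any KO-WT comparison by edgeR and 0 by DESeq2. At an unadjusted p under 0.05 there were 3 in hippocampus, 0 in prefrontal cortex, 2 in striatum and 0 on the summed counts. Of all genes tested, 1269 of 15581, 1808 of 15376, 1110 of 15553 and 1758 of 16676 had such a p in the same order (edgeR). The members of smallest p in hippocampus were Rpl14 (-0.052, SE 0.023), Rpl38 (-0.072, SE 0.031) and Rps28 (-0.087, SE 0.040), each with an adjusted p of at least 0.569 (edgeR). In prefrontal cortex they were Rps2 (0.098, SE 0.051), Rps27l (0.11, SE 0.084) and Rpl7l1 (0.056, SE 0.046). In striatum they were Rpl30 (0.12, SE 0.055), Rpl7l1 (0.077, SE 0.036) and Rps12-ps3 (0.10, SE 0.056), and on the summed counts Rpl7l1 (0.052, SE 0.030), Rps27l (0.074, SE 0.045) and Rpl30 (0.068, SE 0.042).

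As a group these 88 lay close to 0. Their median log2 difference was -0.015 in hippocampus, 0.016 in prefrontal cortex, 0.045 in striatum and 0.013 on the summed counts, against 0.0012, -0.0037, 0.0025 and 0.00010 for all genes tested. The number above 0 was 20, 70, 84 and 75 of 88. Differences within 0.1 of 0 were found for 86, 84, 80 and 87 of them. The large and small subunits gave like medians, -0.015 and -0.017 in hippocampus and 0.047 and 0.045 in striatum. In striatum the 4 libraries of highest summed share were left out in an added repeat; since they were chosen by the members' own level and 3 of them are KO, a smaller difference follows from the choice. Without KO replicates 8, 9 and 10 and WT replicate 10, the median of the 93 members went from 0.045 to 0.0064, and 59 instead of 87 of 93 were above 0. In prefrontal cortex KO replicate 10 and WT replicate 6, also chosen by the members' level, were left out. The median of the 93 members there went from 0.016 to 0.012, and 63 instead of 73 of 93 were above 0.

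**Figure D3:**
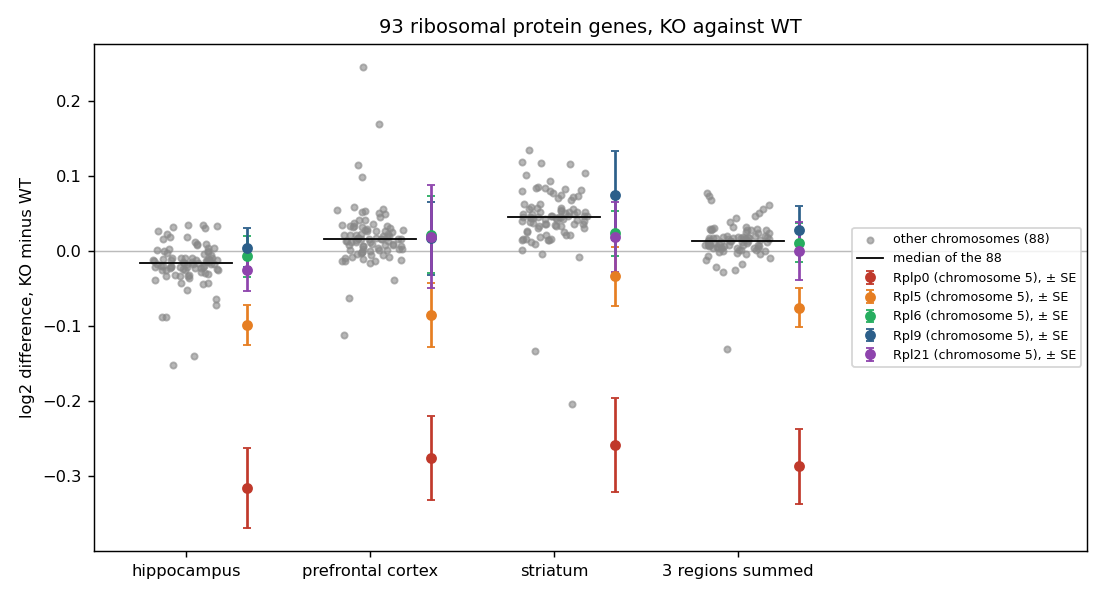
Log2 difference, KO minus WT, of the 93 members tested, in each region and on summed counts; grey points are the 88 on other chromosomes, with a line at their median, and coloured points are the 5 on chromosome 5 with their SE. Rplp0 lies between -0.32 and -0.26 and is the lowest member in each comparison. The 88 on other chromosomes have medians of -0.015, 0.016, 0.045 and 0.013 and lowest values of -0.15, -0.11, -0.20 and -0.13.

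Other genes of ribosome making and use were taken from lists chosen by function. Of 78 mitochondrial ribosomal proteins, which serve the separate ribosome of mitochondria, 0 passed in each single region (edgeR; 7, 2 and 2 at an unadjusted p under 0.05; 0 by DESeq2) and 1, Mrpl1, which also lies on chromosome 5, fell on the summed counts, by 0.12 (SE 0.025, adjusted p = 0.0497, edgeR). Of 39 ribosome assembly genes, 1 fell in every comparison: Sdad1, whose yeast counterpart is needed to make the large subunit. It lies on chromosome 5 and fell by 0.30 (SE 0.045) in hippocampus, 0.33 (SE 0.049) in prefrontal cortex and 0.32 (SE 0.046) in striatum, and in each region WT replicate 5 had the lowest WT value. Of 32 translation factors and regulators, 1 rose in every comparison, Gcn1l1. Of 20 genes of growth signalling to the ribosome (mTOR, its partners and the S6 kinases), 0 passed (edgeR; 2, 1, 2 and 3 at an unadjusted p under 0.05; 0 by DESeq2), and the smallest p on the summed counts was that of Rps6ka3 (0.089, SE 0.030, adjusted p = 0.288). The medians of the 4 lists on the summed counts were 0.018, 0.0050, 0.019 and -0.0024, against 0.00010 for all genes. The counts of all genes at an unadjusted p under 0.05 stand with the members off chromosome 5.

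Markers of other cells that the dissected tissue could hold were compared in the same way. None of these markers passed edgeR's test in any comparison. In prefrontal cortex 5 erythrocyte, 2 olfactory bulb and 1 microglia marker were among the 222 genes that DESeq2 called, where edgeR called 18. On the summed counts 3 erythrocyte, 2 olfactory bulb and 1 microglia marker were among the 131 genes that DESeq2 called, where edgeR called 27. All 5 erythrocyte markers had negative differences in each region (medians -0.57, -0.58 and -0.31; 5, 5 and 4 at an unadjusted p under 0.05), and their summed level ran from 300 to 621 CPM in KO and from 387 to 887 CPM in WT prefrontal cortex. All 4 olfactory bulb markers had negative differences in prefrontal cortex (median -1.79; 4 at an unadjusted p under 0.05), with summed levels of 4.32 to 50.8 CPM in KO and 5.45 to 98.3 CPM in WT. Oligodendrocyte markers had medians of -0.13 in hippocampus (6 of 6 negative), 0.21 in prefrontal cortex and 0.15 in striatum (6 of 6 positive in both). All 6 microglia markers were positive in each region (medians 0.063, 0.096 and 0.077), and choroid plexus markers had medians of -0.66 in hippocampus (6 of 6 negative), 0.54 in prefrontal cortex (2 of 3 positive) and -0.086 in striatum (5 of 6 negative). The medians of the astrocyte, endothelium and 3 neuron lists lay between -0.047 and 0.067 in each region. The counts of all genes at an unadjusted p under 0.05, given above, hold for these markers too. No marker was at 0 throughout a group. The part of these cells in the Rplp0 result was not tested.

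Regions were compared within WT, and again in the KO libraries, which share no library with the WT contrast. The regional labels were borne out by their markers: 6 of 6 striatal neuron markers were higher in striatum (median log2 difference 4.92 against hippocampus), 5 of 6 hippocampal markers were higher in hippocampus (median 3.70 against prefrontal cortex), and 6 of 6 cortical excitatory markers were higher in prefrontal cortex than in hippocampus. In WT striatum against hippocampus 54 of 93 members were lower and 3 higher, where 33.9% of all 15826 genes tested were lower and 32.7% higher. The median of the members was -0.14, against -0.0029 for all genes. The share of members called lower was above that of all genes, and the share called higher below it. In the contrasts with prefrontal cortex, the shares called lower in striatum and higher in hippocampus lay near those of all genes. The shares called the other way lay far below those of all genes.

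Against prefrontal cortex, 30 members were lower and 6 higher in WT striatum, where 34.6% of all genes were lower and 36.9% higher, with a median of -0.066. In hippocampus against prefrontal cortex 37 were higher and 4 lower, where 36.9% of all genes were higher and 31.6% lower, with a median of 0.077. The KO libraries gave medians of the same signs (-0.081, -0.055 and 0.039) with fewer calls. Their counts were 33 lower and 3 higher for striatum against hippocampus (30.7% and 31.8% of all genes), 19 lower and 8 higher for striatum against prefrontal cortex (34.2% and 36.7%), and 19 higher and 7 lower for hippocampus against prefrontal cortex (34.8% and 31.2%). In all, 35, 24 and 23 members passed in both genotypes, each with the same sign, out of 57, 36 and 41 in WT and 36, 27 and 26 in KO. Of all genes, 10539, 11315 and 10833 of 15826 passed in WT and 9860, 11181 and 10409 of 15776 in KO. How many of all genes passed in both genotypes was not counted, so the overlap of the members is a description. Whether the contrasts differ between the genotypes was tested in the genotype by region fit given above, in which no member passed.

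The size of these differences was small for all but a few members. In WT, 14 of 93 had an absolute log2 difference of at least 0.25 between striatum and hippocampus, and 4 in each of the other contrasts. How many of all genes reached this size was not counted, so the members are not ranked against them. Without WT striatum replicate 10 and WT prefrontal cortex replicate 6, which were chosen for their high member share, the calls were 71 lower and 3 higher, 37 lower and 7 higher, and 53 higher and 4 lower in the 3 contrasts. Over all genes they were 5473 lower and 5261 higher, 5698 lower and 5684 higher, and 5697 higher and 5216 lower. With library totals as the sole scaling the members called were 76 lower and 2 higher, 24 lower and 6 higher, and 67 higher and 1 lower. All genes shifted as well under this scaling, with 6565 lower and 4156 higher, 5222 lower and 6078 higher, and 7353 higher and 3731 lower. The medians of all genes were then -0.062, 0.026 and 0.098, against -0.0029, 0.013 and 0.025 with the main scaling. Oligodendrocyte markers moved with the regions, with summed levels of 1130 to 1505 CPM in WT prefrontal cortex, 2386 to 4124 CPM in hippocampus and 5036 to 9862 CPM in striatum. The part of cell makeup in the regional differences was not tested.

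Rps15a, a protein of the small subunit, differed most among the standard genes. Its WT libraries ran from 117 over a median of 124 to 140 CPM in hippocampus, from 104 over 106 to 115 CPM in prefrontal cortex and from 80.3 over 87.3 to 103 CPM in striatum. The 3 regions did not overlap. Striatum was 0.51 lower than hippocampus (SE 0.037, adjusted p = 9.17e-14, edgeR) and 0.29 lower than prefrontal cortex (SE 0.037) on the log2 scale, and the KO values were -0.47 (SE 0.028) and -0.26 (SE 0.028).

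Rpl22 was higher in hippocampus than in both other regions. Its WT libraries ran from 66.6 over 71.6 to 78.4 CPM in hippocampus, from 49.6 over 55.1 to 58.9 CPM in prefrontal cortex and from 48.3 over 52.7 to 57.1 CPM in striatum. Hippocampus did not overlap the other regions, which overlapped each other. The differences were 0.40 (SE 0.032) over prefrontal cortex and 0.47 over striatum (SE 0.032, adjusted p = 1.61e-14, edgeR), while striatum and prefrontal cortex did not pass (-0.063, SE 0.032). Rpl22l1 followed with smaller differences, 0.20 (SE 0.057) and 0.26 (SE 0.057), so its ratio to Rpl22 was 47.1% in hippocampus and 55.2% and 54.6% in prefrontal cortex and striatum.

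Rps27l, a copy of Rps27 known as a target of p53, was 0.44 higher (SE 0.066) in hippocampus than in prefrontal cortex and 0.39 higher (SE 0.066) than in striatum. It had low levels, with WT medians of 6.66, 4.94 and 4.87 CPM in hippocampus, prefrontal cortex and striatum. Also lower in striatum than in hippocampus were Rpl18 (-0.33, SE 0.038) and Rps21 (-0.31, SE 0.064). All 5 chromosome 5 members were lower in WT striatum than in hippocampus, from -0.10 for Rpl6 to -0.31 for Rplp0 (SE 0.057). Of the 88 members off chromosome 5, 82 also had negative differences, so this is no trait of the chromosome 5 members.

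A few members went the other way. Rpl31, of the large subunit, ran from 135 over 143 to 165 CPM in WT striatum, from 115 over 124 to 138 CPM in hippocampus and from 116 over 130 to 161 CPM in prefrontal cortex, with overlap between all regions. It was 0.24 higher in striatum than in hippocampus (SE 0.051) and 0.16 higher than in prefrontal cortex (SE 0.051), and in KO 0.29 and 0.15. Rpl3l was 0.84 higher (SE 0.17) than in hippocampus and 0.92 higher (SE 0.17) than in prefrontal cortex, at WT medians of 0.401, 0.225 and 0.212 CPM in striatum, hippocampus and prefrontal cortex. Rpl28 was 0.12 higher (SE 0.040) in striatum than in hippocampus.

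Against prefrontal cortex, the largest negative values in striatum after Rps15a were those of Rpl36al (-0.26, SE 0.053), Rpl12 (-0.24, SE 0.050), Rps14 (-0.21, SE 0.047) and Rpl8 (-0.19, SE 0.038). The largest positive ones after Rpl3l and Rpl31 were those of Rps27 (0.16, SE 0.058), Rps27rt (0.15, SE 0.064), which shares sequence with Rps27, and Rps29 (0.13, SE 0.053). In hippocampus against prefrontal cortex, Rps21 (0.23, SE 0.064) and Rpl30 (0.22, SE 0.055) were also among the members called higher, below Rps27l and Rpl22. The 4 members lower in hippocampus were Rpl29 (-0.30, SE 0.083), Rps19bp1 (-0.17, SE 0.062), Rpl41 (-0.11, SE 0.044) and Rpl28 (-0.11, SE 0.040).

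**Figure D4:**
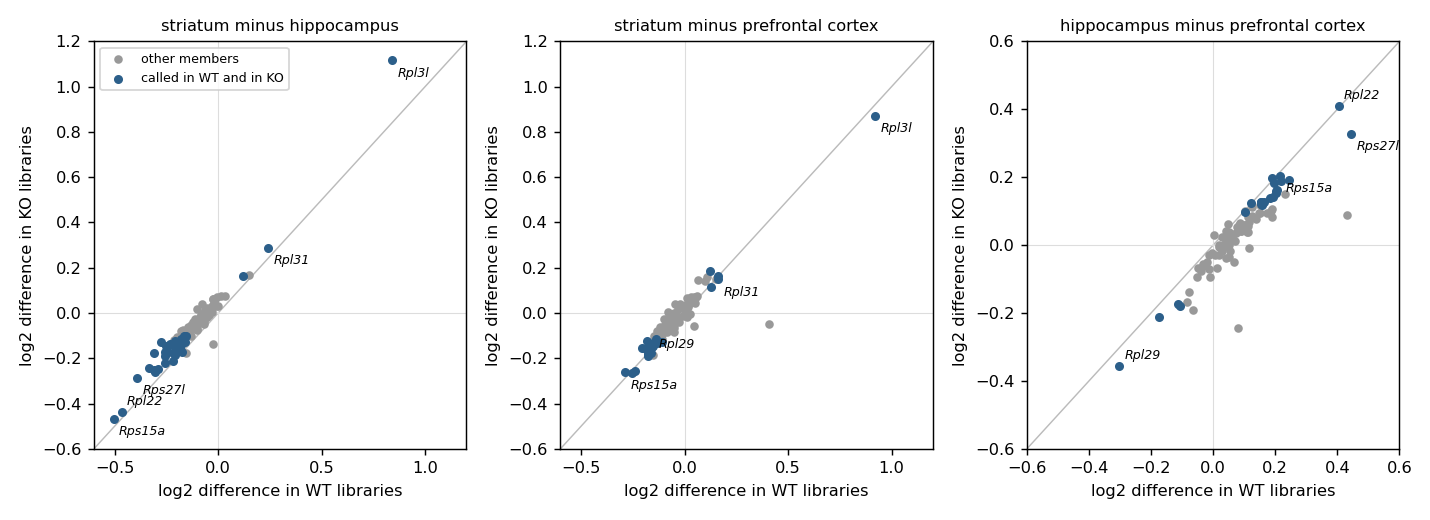
Log2 differences between regions of the 93 members, in WT libraries (horizontal) and in KO libraries (vertical), with the line of equality; blue points passed in both genotypes (35, 24 and 23 members). Rps15a, Rpl22 and Rps27l lie at the low end of striatum against hippocampus and Rpl31 and Rpl3l at the high end. How many of all genes passed in both genotypes was not counted.

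Within a group of 10 libraries most members rose and fell together. Over the 60 libraries, with each group's mean taken off, the median correlation between 2 members was 0.76 on the log2 scale; libraries share depth and scaling, so this is a description. The standard deviation between libraries of a group had a median of 0.11 over the 93 members and lay under 0.15 for 84 of them. The members least tied to the rest included Rpl3 (median r of 0.16 with the other members), Rpl3l (0.20), Rpl13a-ps1 (0.20), Rps3a1 (0.22) and Rpl7a-ps3 (0.23). Rpl3 and Rps3a1 are abundant standard genes, of the large and the small subunit, and Rpl3 had a small spread (0.094).

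For a few members the spread followed the replicate number in all 3 regions. The labels do not say that equal numbers of a genotype mark 1 animal, but libraries with equal numbers deviated together (mean correlation between 0.19 and 0.25 over genes, against about -0.02 for unequal numbers). For each member, the log2 level relative to the group mean and to the median member of the same library was compared between regions over the 20 pairs of genotype and replicate number. This measure was chosen after the data were seen. Of the 93 members, 5 had a Pearson r above 0.7 in all 3 pairs of regions (Rps3a1, Rpl3, Rpl29, Rplp0 and Rpl30), and Rpl34 came next with a lowest r of 0.697. The median over members of the lowest r was -0.052. Without taking off the median member, 1 of the 5, Rpl29, kept an r above 0.7 in all 3 pairs. The values were then 0.726, 0.846 and 0.696 for Rps3a1, 0.513, 0.673 and 0.411 for Rpl3, 0.699, 0.676 and 0.675 for Rplp0 and 0.389, 0.216 and 0.349 for Rpl30.

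Rps3a1 (on chromosome 3) had r of 0.948 between hippocampus and prefrontal cortex, 0.936 between hippocampus and striatum and 0.942 between prefrontal cortex and striatum, with Spearman's rho of 0.919, 0.910 and 0.937. The two-sided permutation p was 1e-05 for each, the smallest that 100000 resamples can give, and 0.000254 after Benjamini-Hochberg adjustment over the 279 relations computed. Without the 2 pairs farthest from the median, r was 0.946, 0.952 and 0.930. KO replicate 3 and WT replicates 5 and 10 were among its 6 lowest in each region. Rpl3 (on chromosome 15) had r of 0.885, 0.885 and 0.956 (permutation p of at most 2e-05, adjusted at most 0.000372) and rho of 0.820, 0.782 and 0.923 (permutation p of at most 0.0001, adjusted at most 0.00232), and r of 0.808, 0.812 and 0.954 without the 2 farthest. Rplp0 had r of 0.844, 0.890 and 0.817 within the genotypes (permutation p of at most 7e-05, adjusted at most 0.00115), rho of 0.750, 0.884 and 0.863 (permutation p of at most 0.00022, adjusted at most 0.00409), and r of 0.691, 0.825 and 0.692 without the 2 farthest.

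Rpl29 (on chromosome 9), a small protein of the large subunit, fell into separate clusters, so no correlation is given for it. In each region the same 5 pairs were lowest: KO replicates 1, 4, 5 and 9 and WT replicate 2. In hippocampus these 5 lay between 48.3 and 53.7 CPM and the other 15 between 70.4 and 76.6 CPM. In prefrontal cortex they lay between 55.3 and 67.8 CPM, against 80.6 to 114.5 CPM, and in striatum between 56.4 and 60.8 CPM, against 74.5 to 85.1 CPM. The 2 sets did not overlap in any region, and both held KO and WT libraries. The genotype difference of Rpl29 was -0.15 (SE 0.090), -0.11 (SE 0.12) and -0.13 (SE 0.085) in the 3 regions and did not pass.

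**Figure D5:**
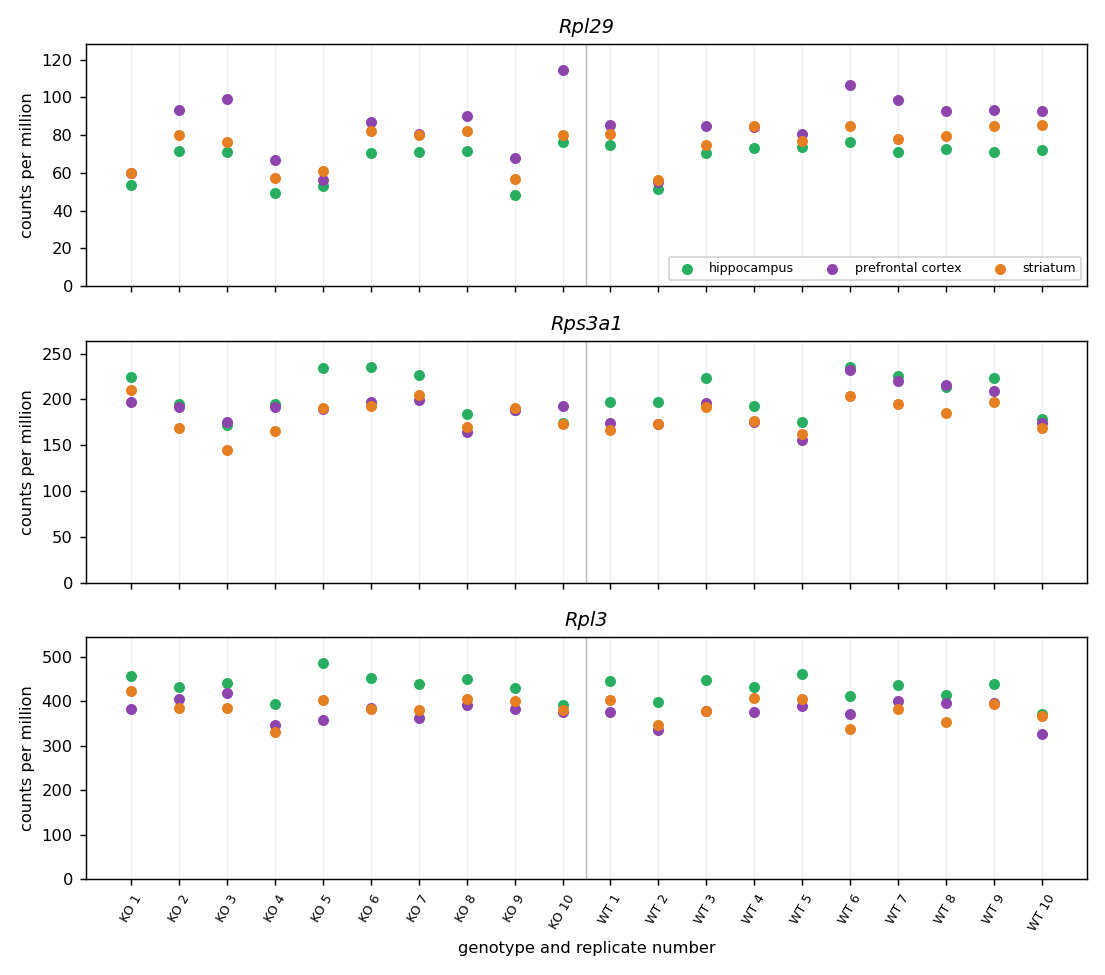
Level (CPM) of Rpl29, Rps3a1 and Rpl3 in each of the 60 libraries, by genotype and replicate number (horizontal), with a colour for each region. For Rpl29 the same 5 numbers, KO 1, 4, 5 and 9 and WT 2, lie lowest in all 3 regions, at 48.3 to 67.8 CPM.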

How the data were processed

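RNA of 3 brain regions was measured in 60 libraries. The authors deposited raw counts per gene as whole numbers; per the file headers a feature spans the whole gene, introns included. The build GRCm38 and the tools STAR 2.5.2b, DESeq2 1.16.1, bedtools, cutadapt 1.16 and FastQC 0.11.4 are named, per the submitters' processing notes, and no source used here gives their roles, the strand setting or the treatment of reads with several matches. Depth was 38985577 to 51387833 counts per library. From these counts, edgeR 4.0.16 (R 4.3.3) with TMM scaling, filterByExpr and the quasi-likelihood test was fitted over all genes and checked on simulated counts. Alternatives were DESeq2 1.42.0, limma voom 3.58.1, other scalings, filters, fits and samples. Levels are CPM after TMM over 60 libraries; correlations used log2(CPM + 0.5). Message lengths are those of GENCODE M21. Replicate numbers name libraries; whether they mark separate animals is not stated, so p-values measure the spread between libraries. In prefrontal cortex paired with either other region every same-numbered pair correlated above 0.1; between hippocampus and striatum 8 of 10 did in each genotype. KO and WT numbers share only a number. Members and lists were chosen with earlier results of these data known. Named are all chromosome 5 members, all members that passed, the 3 others of smallest p per comparison, the 5 highest and lowest per length, the 5 largest regional differences each way, members removed by the filter, related pairs, stalk genes, and list members of smallest p (1 of these is not reported here); Gcn1l1's neighbourhood and the genes compared by replicate number were chosen after their values were seen.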

Additional observations from a re-analysis of the deposited data

Results flagged for a closer look

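In 96 groups of 10 libraries (15 members in 6 groups, and the summed share), 20 values stood apart from the other 9 by more than Dixon's critical share of the range of the group. Chance alone gives about 1 in 20 groups when these are independent and not selected. Here members of a library rose and fell together, and several of the 15 were chosen after their values were seen. The 20 values thus cannot be set against that rate. For Rplp0 the lowest WT library, replicate 5, stood apart in hippocampus (142 CPM) and prefrontal cortex (115 CPM). For Rpl29 the lowest WT library, replicate 2, stood apart in hippocampus (51.5 CPM), prefrontal cortex (55.3 CPM) and striatum (56.4 CPM). Other low values were Rpl3 at 330 CPM in a KO striatum library. High values in a KO prefrontal cortex library were those of Rpl5 (208 CPM), Rpl6 (254 CPM), Rpl21 (170.3 CPM), Rpl22 (62.7 CPM), Rpl31 (178 CPM) and the summed share (1.235%). High values elsewhere were those of Rpl6 (216 CPM) and Rpl30 (90.2 CPM) in KO striatum, Rpl9 (255 CPM), Rpl34 (65.3 CPM), Rpl3l (0.771 CPM) and the summed share (1.10%) in WT striatum, Rps15a (140 CPM) in WT hippocampus and Rps27l (8.35 CPM) in KO hippocampus.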

How the results depend on the processing

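The replicate number as a block removed the Rplp0 call: 0 members passed in hippocampus (-0.32, adjusted p = 0.197, edgeR), 0 in prefrontal cortex (-0.27, adjusted p = 0.112) and 0 on summed counts (-0.29, adjusted p = 0.155). KO and WT libraries of equal number deviated no more alike than others (mean correlation -0.13, -0.010 and -0.054). In the KO-WT comparisons the block is thus a pairing by number alone, and it left 0 calls in striatum. The interaction was blocked by genotype and replicate number together, and 0 members passed. The region contrasts of WT were blocked by replicate number within WT and gave 66, 44 and 48 calls. There libraries of equal number did deviate together (mean correlation 0.225, 0.195 and 0.224). In prefrontal cortex 0 members passed with no filter on low counts (Rplp0 adjusted p = 0.0543), 0 without the 2 libraries of highest share, and 0 to 1 with each library left out in turn. In striatum 1 passed by DESeq2 and 1 in a fit of all 60 libraries. On summed counts the fit of 60 libraries with region as a term called 2. Leaving out each library gave 1 member throughout in hippocampus and on summed counts and 0 in striatum. The region contrasts gave 36 calls (striatum against hippocampus) and 26 (hippocampus against prefrontal cortex) in the KO libraries. With library totals as scaling, WT hippocampus against prefrontal cortex gave 68, and the median of all genes went from 0.025 to 0.098. The cause of these changes was not tested. Rplp0 kept its sign under every alternative run. No result turned its sign past the threshold.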
